A study of Drosophila melanogaster with 10 samples.

Results

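The nebenkern is the onion-like body that forms in the round spermatid of the fly when all mitochondria of the cell gather beside the nucleus, fuse into a pair of giant mitochondria and wrap around each other. It later unfolds and elongates along the growing sperm tail. Fusion needs mitofusins in the outer membrane and an Opa1 GTPase in the inner membrane, fission needs the dynamin-related GTPase Drp1, and adaptors couple mitochondria to motor proteins on microtubules. Here 10 genes of mitochondrial fusion, fission and nebenkern shaping were followed, namely *fzo*, *Marf*, *Opa1*, *Drp1*, *Pink1*, *park*, *rho-7*, *knon*, *milt* and *Miro*. They were chosen by name, with earlier results of these data known. A probe set was used where the platform annotation pairs it with exactly 1 of them. This gave 10 probe sets for 8 genes among 18769 probe sets tested, with 3 probe sets for *milt* and 1 for each of the other 7 genes. *park*, which encodes a ubiquitin ligase, and *rho-7*, which encodes a mitochondrial rhomboid protease, were matched to no such probe set and were not analysed here.

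The RNA came from adult testes of flies 0-2 days old, kept at 25°C. The mutants were homozygous for a *tbrd-1* allele written tbrd-11/tbrd-11 in the labels, where the final 1 is the allele number, and the controls were w1118 flies. The allele carries a P element with the *white* gene, which w1118 flies lack in working form, inserted in *tbrd-1*, a gene for a testis bromodomain protein of primary spermatocytes. Each genotype had 5 Affymetrix Drosophila Genome 2.0 arrays, and every array had its own RNA from the testes of 25 pooled animals. The signal of *tbrd-1* was 14, 14, 16, 15 and 10 on the mutant arrays and 758, 975, 692, 881 and 630 on the wild-type arrays, so the arrays followed their labels.

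All values are signal intensities made by robust multi-array averaging (RMA), and log2-fold changes are mutant minus wild-type differences of mean log2 intensities. A change was tested with limma over all probe sets, with Benjamini-Hochberg adjustment. Following the study's thresholds, a probe set is called altered below if its adjusted p did not exceed 0.05 and it moved by 1 or more on the log2 scale in either direction. RNA of whole testes was measured, so fewer cells of a type and less RNA per cell cannot be told apart. Different probe sets bind with different strength, so their levels were not compared with each other.

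The tissue markers moved between arrays in part. The mean log2 signal of 9 germline genes lay between 9.39 and 9.60 in the mutant and between 9.33 and 9.64 in wild-type, and 5 of them did not pass the test at an adjusted p of 0.05. *can* was down-regulated (log2-fold change -1.11), whereas *sa* (0.77), *topi* (0.54) and *vas* (0.29) were higher in the mutant with an adjusted p below 0.05 from limma. For 7 muscle genes the mean lay between 7.74 and 8.28 in the mutant and between 8.34 and 8.68 in wild-type. Of these, 3 were lower in the mutant with an adjusted p below 0.05 from limma. *Act88F* varied widely, from 30 to 161 in the mutant and from 44 to 385 in wild-type (adjusted p = 0.19). The mean of 7 digestive enzyme genes ran from 4.78 to 8.80 in the mutant and from 4.86 to 10.88 in wild-type. Its high values were on mutant replicate 3 and wild-type replicates 1, 3 and 4. Of the ejaculatory bulb genes, *Ebp* and *EbpII* were bright on mutant replicates 2, 4 and 5 and wild-type replicates 2 and 3, while *EbpIII* had signals of 1212 to 3285 in the mutant and 2451 to 3788 in wild-type. Cyst cell and hub genes lay between 5.42 and 5.55 in the mutant and between 5.33 and 5.68 in wild-type. The accessory gland genes, which belong to an organ next to the testis, were bright on all 10 arrays.

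None of the 10 probe sets was altered in *tbrd-1* mutant testes, where 3.54% of all probe sets were (2.36% lower and 1.18% higher). At an unadjusted p under 0.05 from limma, 4 of the 10 differed, as compared with 46.4% of all probe sets, and the methods' t-test with the same thresholds also called 0. Without the fold minimum, the probe set of *fzo* and the dimmest one of *milt* had an adjusted p of at most 0.05, both with higher signals in the mutant, which is 2 of 10 as compared with 36.2% of all probe sets (21.6% higher and 14.7% lower). The mutant and wild-type arrays overlapped for each of the 10 probe sets, while they were separate for 24% of all probe sets (10.3% lower and 13.6% higher). Taking the brightest probe set of each gene, the median log2-fold change was 0.03 over the 8 genes and 0.07 over all probe sets. In absolute terms the median was 0.11 over the 10 probe sets and 0.18 over all probe sets. The 95% intervals of the 10 log2-fold changes lay between -0.68 and 0.46, so every interval ended inside the fold minimum.

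**Figure D1:**
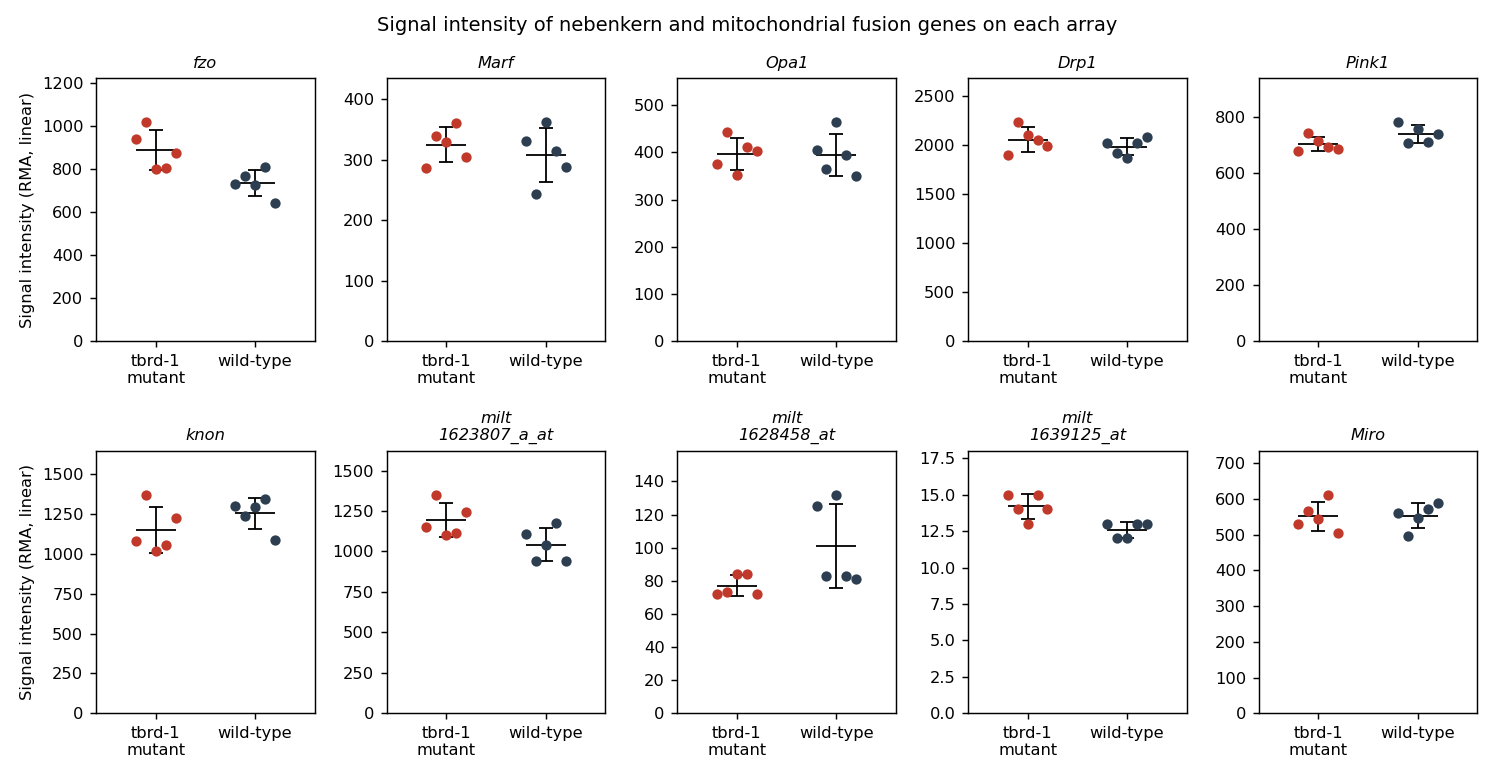
Signal intensity (RMA, linear scale starting at 0) of the 10 probe sets, with 1 point for each array, *tbrd-1* mutant arrays left and wild-type arrays right, and a bar with whiskers for the mean ± SD of 5 arrays. The points of both genotypes overlap in every panel, and *fzo* has 3 mutant arrays above the highest wild-type array at 808.

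*fzo* (fuzzy onions, chromosome arm 3R, probe set 1630089_at) encodes the mitofusin of the male germline, which acts in the round spermatid when the nebenkern forms. Its signal was 939, 1016, 798, 804 and 875 on the mutant arrays and 728, 764, 722, 808 and 642 on the wild-type arrays. Mutant replicates 1, 2 and 5 lay above all wild-type arrays, and mutant replicates 3 and 4 lay just below wild-type replicate 4. The mean was 886 ± 92.6 in the mutant and 733 ± 61.3 in wild-type (SD, n = 5 each), a 1.21-fold higher signal. The log2-fold change was 0.27 (standard error 0.08, 95% interval 0.09 to 0.46, adjusted p = 0.027 from limma).

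This difference of *fzo* kept its direction in all 22 other settings, with log2-fold changes from 0.22 to 0.38, but its adjusted p exceeded 0.05 in 6 of them. The adjusted p from limma was 0.066 without mutant replicate 1, 0.059 without mutant replicate 2 and 0.054 without wild-type replicate 1. It was 0.093 with scaling on ribosomal protein probe sets. It was 0.080 on the 6 arrays that were not bright in digestive enzyme genes. On the 5 arrays with dim *Ebp* and *EbpII*, genes of the ejaculatory bulb, it was 0.27. Both settings leave few arrays per genotype, which raises the p at a like difference. Whether carried-over tissue played a part was not tested.

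*Marf* (X chromosome, probe set 1625464_at) encodes the mitofusin paralog that is expressed widely. Its signal was 287, 339, 330, 361 and 305 on the mutant arrays and 331, 243, 362, 314 and 288 on the wild-type arrays. All mutant arrays lay within the wild-type range, whose ends were wild-type replicates 2 and 3. Its log2-fold change of 0.09 did not pass the test (95% interval -0.15 to 0.32, adjusted p = 0.55 from limma). Whether genotype moved the 2 mitofusins unequally was tested on the log2 ratio of *fzo* to *Marf* within each array, which cancels what moves both alike. This ratio was 1.45 ± 0.23 in the mutant and 1.26 ± 0.26 in wild-type (SD, n = 5 each). The difference of 0.19 was within the spread of the arrays (two-sided exact permutation test, p = 0.25, and 0.25 after adjustment over the 2 pairs tested). Only mutant replicate 1 had a ratio above all wild-type arrays. A larger rise of *fzo* than of *Marf* was therefore not detectable with 5 arrays per genotype.

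*Opa1* (chromosome arm 2R, probe set 1626840_a_at) encodes the GTPase that fuses inner membranes and shapes cristae. Its signal was 375, 443, 353, 411 and 402 in the mutant and 405, 364, 464, 394 and 349 in wild-type. The mutant range lay inside that of wild-type, and the log2-fold change was 0.01 (95% interval -0.18 to 0.20, adjusted p = 0.95 from limma).

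*Drp1* (chromosome arm 2L, probe set 1641560_at) encodes the GTPase that divides mitochondria. It had signals of 1892, 2229, 2098, 2048 and 1985 on the mutant arrays and of 2021, 1915, 1860, 2015 and 2075 on the wild-type arrays. Mutant replicates 2 and 3 lay above wild-type and the other 3 arrays within its range. The genotypes differed by 0.05 on the log2 scale (95% interval -0.08 to 0.18, adjusted p = 0.52 from limma), an interval that runs in fold from 0.947 to 1.13.

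*Pink1* (X chromosome, probe set 1639403_s_at) encodes a mitochondrial kinase that acts in a common pathway with the ligase of *park*, and both are needed for a normal nebenkern. Its signal was 677, 743, 714, 692 and 686 in the mutant and 780, 707, 757, 709 and 738 in wild-type. Mutant replicates 1, 4 and 5 lay below all wild-type arrays. The mean was 702 ± 26.5 in the mutant and 738 ± 31.3 in wild-type (SD, n = 5 each). This gave a log2-fold change of -0.07 (95% interval -0.19 to 0.04, adjusted p = 0.30 from limma). The spread of *Pink1* within a genotype was small, with an SD of 0.05 on the log2 scale in the mutant and 0.06 in wild-type.

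*knon* (knotted onions, chromosome arm 2R, probe set 1636218_at) encodes a paralog of ATP synthase subunit d that shapes the inner membranes of the nebenkern. Its signal was 1076, 1369, 1017, 1053 and 1225 on the mutant arrays and 1296, 1238, 1293, 1342 and 1087 on the wild-type arrays. Mutant replicates 1, 3 and 4 lay below wild-type, whereas mutant replicate 2 had the highest signal of all 10 arrays. The log2-fold change was -0.13 (95% interval -0.33 to 0.07, adjusted p = 0.29 from limma).

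For comparison *ATPsynD*, the gene of the general subunit d, had signals of 2776, 2909, 3094, 2831 and 2803 in the mutant and of 2862, 2438, 3386, 2512 and 2407 in wild-type. The mutant arrays lay inside the wild-type range, and the genotypes differed by 0.09 on the log2 scale (adjusted p = 0.45 from limma). The log2 ratio of *knon* to *ATPsynD* was -1.34 ± 0.20 in the mutant and -1.11 ± 0.19 in wild-type (SD, n = 5 each), a difference of -0.22 (two-sided exact permutation test, p = 0.13, and 0.25 after adjustment over the 2 pairs). Without mutant replicate 2 the difference was -0.29, with an unadjusted p of 0.048 in the same exact permutation test. This is 1 of 10 values with a single array left out, all of them negative. Its p was adjusted neither for that choice nor for the 2 pairs.

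**Figure D2:**
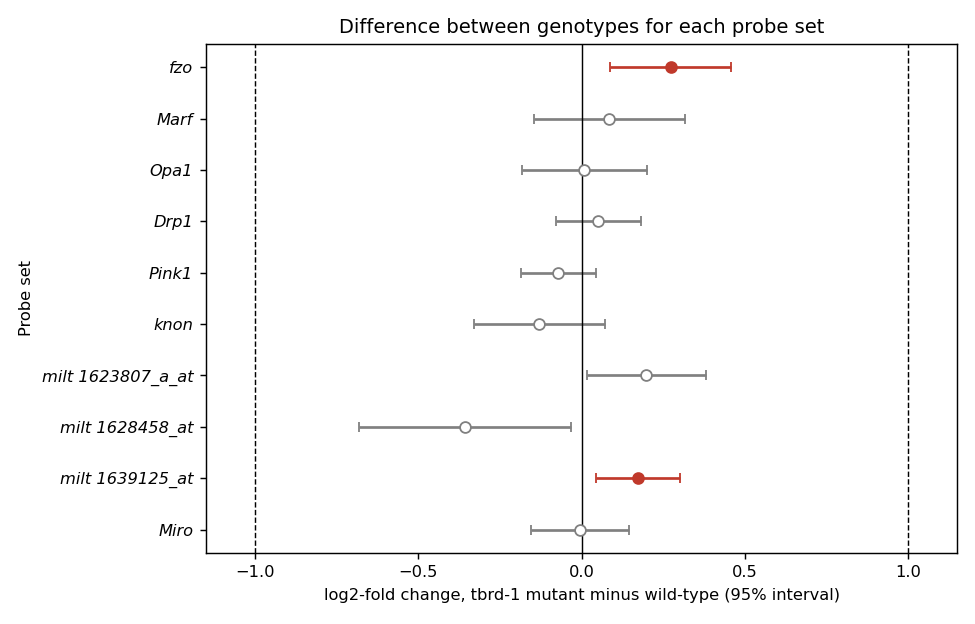
Log2-fold change between *tbrd-1* mutant and wild-type testes for each probe set (point) with its 95% interval from limma (bar), where dashed lines mark the fold minimum of 1 in either direction. Filled points have an adjusted p of at most 0.05 (*fzo* at 0.27 and the dimmest *milt* probe set at 0.17), and no interval reaches a dashed line.

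*milt* (milton, chromosome arm 2L) encodes the adaptor that links mitochondria to kinesin, and its 3 probe sets differed in sign. The brightest one, 1623807_a_at, had signals of 1151, 1351, 1104, 1115 and 1244 in the mutant and of 1106, 943, 1038, 1176 and 942 in wild-type. Mutant replicates 2 and 5 lay above wild-type. The log2-fold change was 0.20 (95% interval 0.02 to 0.38, adjusted p = 0.083 from limma), which did not pass the test. It passed with median centring (0.30, adjusted p = 0.013), without wild-type replicate 4 (0.24, adjusted p = 0.044) and without the arrays bright in digestive enzyme genes (0.36, adjusted p = 0.041).

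The second probe set of *milt*, 1628458_at, had signals of 72, 73, 84, 84 and 72 in the mutant and of 125, 83, 132, 83 and 81 in wild-type. Wild-type replicates 1 and 3 stood apart from the other 8 arrays, which lay between 72 and 84. These arrays also had the highest means of digestive enzyme genes, 10.82 and 10.88 on the log2 scale. Wild-type replicate 4, with a mean of 9.32 for these genes, had a *milt* signal of 83. The part of gut RNA in the difference was not tested. This gave a log2-fold change of -0.36 (95% interval -0.68 to -0.03, adjusted p = 0.080 from limma), the largest in size among the 10 probe sets. It was -0.13 (adjusted p = 0.38) without the arrays bright in digestive enzyme genes. These include wild-type replicates 1 and 3, whose removal lowers the difference whatever its cause.

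The dimmest probe set of *milt*, 1639125_at, had signals of 15, 14, 13, 15 and 14 in the mutant and of 13, 12, 12, 13 and 13 in wild-type. The deposited values are whole numbers, so at this level a single step is a large part of the difference. Its log2-fold change was 0.17 (adjusted p = 0.039 from limma), and its adjusted p exceeded 0.05 in 13 of 21 other settings. It was among the dimmest probe sets, which a further setting left out, and without a detection call its level cannot be separated from background.

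*Miro* (chromosome arm 3R, probe set 1623553_a_at) encodes the outer-membrane GTPase that binds the adaptor of *milt*. Its signal was 530, 565, 543, 612 and 505 in the mutant and 561, 496, 548, 571 and 588 in wild-type. Mutant replicate 4 lay above wild-type and the other 4 mutant arrays within its range. On the log2 scale the difference was -0.01 (95% interval -0.15 to 0.14, adjusted p = 0.96 from limma). *fzo* and *Miro* are on the chromosome arm of *tbrd-1*. Counted along 3R in Release 6, 81 protein-coding genes lie between *fzo* and *tbrd-1*, and 24 lie between *Miro* and *tbrd-1* on the other side.

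The sign of *Opa1*, *Pink1* and *Miro* depended on the scaling of the arrays. With each array centred on its median, which raises the median log2-fold change of all probe sets to 0.17 in place of 0.07, the values were 0.38 for *fzo*, 0.19 for *Marf*, 0.15 for *Drp1*, 0.11 for *Opa1* and 0.10 for *Miro*. They were 0.03 for *Pink1* and -0.03 for *knon*. Of these 7 genes only *fzo* passed the test with median centring. With scaling on ribosomal protein probe sets *Opa1* was at -0.02, *Miro* at -0.04 and *Pink1* at -0.10. Over all 22 other settings the sign changed in 7 for *Opa1*, in 7 for *Miro* and in 1 each for *Marf*, *Drp1*, *Pink1* and *knon*, without passing the test.

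Arrays of 1 genotype differed from each other over several of these genes at once. Mutant replicate 2 had the highest mutant signal for 6 of the 8 genes, with *Marf* and *Miro* as the exceptions. It was highest for 23.9% of all probe sets. This was not particular to these genes. The same array was the highest mutant array for *Letm1* (793) and *Phb2* (1144), further mitochondrial genes read below. It was not the highest for *Vps13D* (401) or *Pgam5* (529). On average the 8 genes lay 0.14 above their mutant mean on mutant replicate 2, on the log2 scale. Mutant replicates 1 and 3 each deviated by -0.06, and together they were lowest for 7 of the 8 genes. Of all probe sets, mutant replicate 1 was lowest for 16% and mutant replicate 3 for 29.6%. In wild-type, replicates 2 and 5 deviated by -0.10 and -0.08, and the other 3 arrays lay 0.06 above the mean. Mutant replicate 2 also had the lowest mean of muscle genes, 7.74, and the lowest mean of accessory gland genes, 12.91, of all arrays. Among the mutant arrays it had the highest mean of germline genes, 9.60. Its means of the other marker lists lay between those of other mutant arrays. The part of tissue composition in this pattern was not tested.

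**Figure D3:**
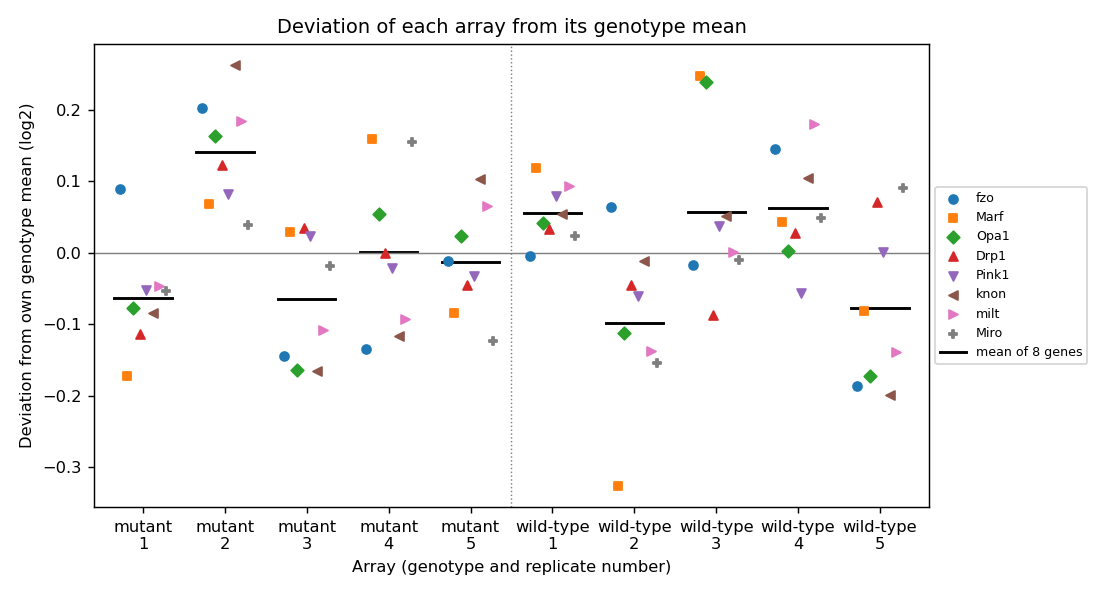
Deviation of each array from the mean of its own genotype (log2 scale) for the brightest probe set of 8 genes, with mutant arrays left, wild-type arrays right and a black bar for the mean of the 8 genes. All 8 genes lie above 0 on mutant replicate 2, where the mean is 0.14.

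The genes whose signal followed *fzo* most closely over the 10 arrays, among 11981 other genes, were *CG33140* (Pearson r = 0.971), *CG31933* (r = 0.968) and *CAH13* (r = 0.965), the last of which encodes a carbonic anhydrase. These coefficients describe likeness over arrays that share genotype and tissue makeup, and carry no test. The log2-fold changes of these genes were 0.33, 0.41 and 0.26 (adjusted p = 0.030, 0.0039 and 0.028 from limma). A like difference between the genotypes is in part given by the choice of genes that follow *fzo*. The adjusted p exceeded 0.05 in 11 of 22 other settings for *CG33140*, in 8 for *CAH13* and in 1 for *CG31933*.

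Further genes of mitochondrial dynamics and quality control were read from the same fit. Of 22 such genes with a probe set, *Vps13D* was up-regulated and 21 did not pass the call, where 3.54% of all probe sets were altered. Without the fold minimum 4 were higher and 7 lower in the mutant, that is 11 of 22, where all probe sets gave 36.2%. The median log2-fold change was -0.06, as compared with 0.07 over all probe sets. *Vps13D* encodes a lipid transfer protein that acts in mitochondrial size and clearance. Its signal was 404, 401, 355, 422 and 361 in the mutant and 153, 165, 143, 151 and 138 in wild-type, without overlap. The log2-fold change was 1.37 (standard error 0.07, adjusted p = 1.1e-07 from limma), and it stayed between 1.34 and 1.48 in 22 other settings.

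The next largest differences of this list were below the fold minimum. *Letm1*, for an inner-membrane protein of ion exchange, had a signal of 725 ± 42.4 in the mutant and 1096 ± 118 in wild-type (SD, n = 5 each), and thus differed by -0.59 on the log2 scale (adjusted p = 0.00019 from limma). *Pgam5*, a mitochondrial phosphatase gene, had 0.42 (adjusted p = 0.00029), and the prohibitin gene *Phb2* had -0.34 (adjusted p = 0.024). The receptors that bring Drp1 to the membrane were looked at after their values had been seen. *Tango11*, the fly Mff, had -0.29 (adjusted p = 0.0055 from limma), with all mutant arrays, at 2280 to 2506, below all wild-type arrays, at 2579 to 3234. *Fis1* had -0.11 (adjusted p = 0.16), and its dimmer probe set had -0.39 (adjusted p = 0.11).

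Of 8 genes of spermatid mitochondria, *dj* was up-regulated and 7 did not pass the call, where 3.54% of all probe sets were altered. Without the fold minimum 2 were higher and 4 lower, where 21.6% of all probe sets were higher and 14.7% lower. The median of the list was -0.11. *dj* (don juan), which encodes a protein of the mitochondrial derivatives in the sperm tail, had a signal of 2870 ± 61.9 in the mutant and 1357 ± 161 in wild-type (SD, n = 5 each). With limma the log2-fold change was 1.09 (adjusted p = 1.9e-06), which lay close to the fold minimum, and between 1.01 and 1.19 in other settings. *djl*, its relative, had -0.34 (adjusted p = 0.018 from limma), the opposite sign. *ntc*, for an F-box protein of sperm individualization, had -0.67 (adjusted p = 4.0e-05), and *tomboy40*, a testis paralog of the import pore, had 0.39 (adjusted p = 0.00042). *bb8*, whose mutants have an abnormal nebenkern, and *mtsh* (mitoshell) were picked after their values had been seen. *bb8* had signals of 5393 to 5922 in the mutant and 6834 to 7667 in wild-type, and differed by -0.33 on the log2 scale (adjusted p = 0.00053 from limma), and *mtsh* had 0.09 (adjusted p = 0.63).

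None of 16 ATP synthase genes was altered by limma or the methods' t-test, with 4 at an unadjusted p under 0.05 (46.4% of all probe sets), and *ATPsynCF6L* alone had an adjusted p of at most 0.05 (log2-fold change 0.38, adjusted p = 0.0050 from limma). It encodes a paralog of coupling factor 6. The general subunit genes *blw* (alpha) and *ATPsyngamma* had log2-fold changes of -0.26 and -0.20 and the paralog gene *ATPsynbetaL* 0.23 (adjusted p = 0.086, 0.068 and 0.051), while the dimmer probe set of *ATPsyngamma* gave -0.10 (adjusted p = 0.51). The median of the list was -0.035. Among 4 genes of motors, none was altered by limma or the methods' t-test and 2 had an unadjusted p under 0.05, again beside 46.4% of all probe sets. *Pat1*, for a cargo adaptor of kinesin, had 0.31 (adjusted p = 0.0028), and *Klc*, the kinesin light chain gene, had -0.24 (adjusted p = 0.0099). *DCTN1-p150* of dynactin and *Dhc64C* of dynein had 0.08 and -0.08 (adjusted p = 0.25 and 0.52). Of the dynamin relatives, *shi* had -0.32 (adjusted p = 0.0048 from limma). Its dimmer probe sets gave 0.05 (adjusted p = 0.76) and -0.74 (adjusted p = 0.00051). In the latter the signals were 30 to 38 in the mutant and 42 to 63 in wild-type. *atl*, for a GTPase that fuses the endoplasmic reticulum, had -0.12 (adjusted p = 0.16). With median centring *Phb2*, *djl*, *Klc* and *Tango11* no longer passed the test (adjusted p = 0.054, 0.062, 0.12 and 0.085 from limma) and *Dhc64C* changed sign to 0.02. In the same setting *ATPsynbetaL* (0.34, adjusted p = 0.018) and *DCTN1-p150* (0.19, adjusted p = 0.042) did pass.

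**Figure D4:**
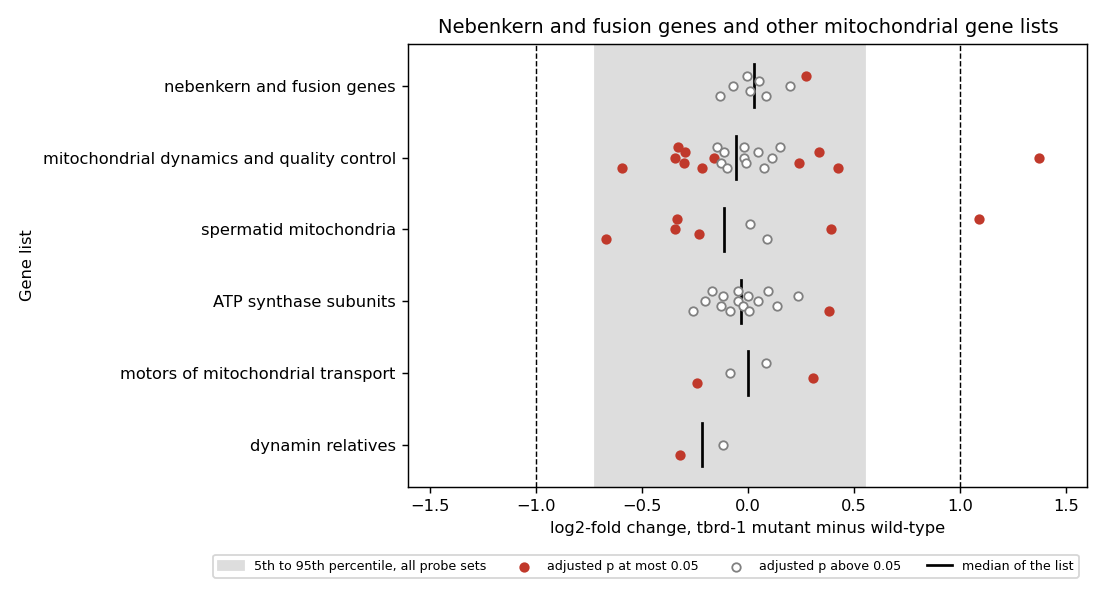
Log2-fold change of each gene (point, brightest probe set) in 6 lists, with the list median as a black bar, the fold minimum as dashed lines and the 5th to 95th percentile of all probe sets (-0.72 to 0.55) in grey. All 8 nebenkern and fusion genes lie inside the grey band, and *Vps13D* at 1.37 and *dj* at 1.09 lie beyond the fold minimum.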

How the data were processed

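RNA of *tbrd-1* mutant and wild-type testes was measured on 5 arrays per genotype. The deposited table holds linear signal intensity rounded by the authors to whole numbers, for 18952 probe sets. The submitters' processing notes name RMA and Affymetrix Expression Console, with no version given in the sources used here. RMA includes a normalization between arrays, which can remove a general shift of all genes. Array medians were 68 to 71 in the mutant and 70 to 78 in wild-type. The number of arrays limits the precision, and no 2 arrays held identical values.

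After removal of 183 control probe sets, log2 values of the other 18769 were modelled by genotype alone in limma (3.58.1, R 4.3.3). The legends of the study name limma in one place and a t-test in another, and a t-test was run as an alternative. The fit was tested on simulated data. Gene names came from the platform annotation (13647 probe sets with 1 gene, 402 with several, 4720 with none), and 13544 symbols were updated through a gene table of Release 6, which served only for names, arms and gene order. Lists used the brightest probe set of a gene. The ratio tests were two-sided exact permutation tests over 252 splits, for which 0.0079 is the smallest p. A planned ratio of *Pink1* to *park* was not run. Figures were drawn with matplotlib 3.10.9.

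The members and lists were chosen with earlier results of these data known. Named were all probe sets of the members, *tbrd-1*, *ATPsynD*, the altered genes and up to 4 largest absolute changes of each list, and the 3 genes most like *fzo*. Other genes are marked as picked later.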

Additional observations from a re-analysis of the deposited data

Results flagged for a closer look

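In 78 groups of 5 arrays, 1 array stood far from the other 4 in 3 cases, while chance gives about 1 in 20. *tbrd-1* had a signal of 10 on mutant replicate 5 and of 14 to 16 on the other mutant arrays. *DCTN1-p150* had a signal of 327 on wild-type replicate 4 and of 285 to 296 on the other wild-type arrays. *CAH13* had a signal of 2506 on wild-type replicate 5 and of 2947 to 3075 on the other wild-type arrays, and *fzo*, which it follows, was also lowest there. None of the 10 probe sets of the nebenkern and fusion genes had such an array.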

How the results depend on the processing

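None of the 10 probe sets of the nebenkern and fusion genes was altered in any of 24 other settings. Past the adjusted p of 0.05 alone the count of these probe sets was 2 in the limma fit used here. The count was 1 with a robust prior, 1 with the dimmest probe sets removed and 1 with the replicate number as a block. It was also 1 without the arrays bright in digestive enzyme genes. It was 0 with scaling on ribosomal protein probe sets and 0 on the arrays with dim *Ebp* and *EbpII*. It was 3 with array weights and 3 with median centring. It lay between 0 and 3 with single arrays left out. It was 0 without mutant replicate 1, mutant replicate 2 or wild-type replicate 1. Over all probe sets, 664 were altered in the limma fit used here, 2320 with a fold minimum of 0.5 and 241 with one of 1.5 on the log2 scale. With median centring 55.5% of the altered probe sets were lower, in place of 66.7%. The replicate numbers did not pair the arrays, since the deviations of same-numbered arrays correlated between -0.31 and 0.48 and 1 of 10 arrays correlated best with its own number. With the replicate block the altered probe sets were 499 lower and 221 higher, and an exact permutation test by sign flips within numbers gave p = 0.25 for *fzo* against *Marf* and 0.0625, the smallest p possible, for *knon* against *ATPsynD*. The ratio of *fzo* to *Marf* differed by 0.12 to 0.29 and that of *knon* to *ATPsynD* by -0.29 to -0.16 with single arrays left out. Without the gut-bright arrays they differed by 0.09 and -0.21, and on the arrays with dim *Ebp* and *EbpII* by 0.27 and -0.42. No gene of these pairs has another probe set to try, and a ratio of *Pink1* to *park* could not be run. Of 219 values of the 10 probe sets under other settings, 195 stayed on their side of the threshold, 19 lost it, 5 gained it and 0 reversed past it, though 18 below the threshold changed sign. The cause was not tested.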
